A study of Mus musculus with 8 samples.

Results

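The proteasome genes of mouse pre-B cells were chosen by symbol. Every protein-coding gene whose symbol starts with Psma, Psmb, Psmc, Psmd, Psme, Psmf or Psmg was taken from the count table by its Entrez ID, and pseudogenes were left out, which gave 50 of 27179 genes. All 50 passed the filter on low counts and were among the 17700 genes tested. By role they were 7 alpha and 7 beta subunits of the constitutive core, 6 ATPases and 3 other subunits of the base, 8 lid subunits, 5 immunoproteasome genes, 3 other activators or inhibitors, 7 assembly chaperones, 2 tissue-restricted core subunits and 2 genes whose products are no subunits, Psmc3ip and Psme3ip1.

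The proteasome degrades proteins that carry ubiquitin chains. Its barrel-shaped core is built of alpha rings that gate entry and beta rings that hold the cutting sites of Psmb5, Psmb6 and Psmb7. The regulatory particle has a base, whose ATPases unfold the substrate, and a lid, which removes ubiquitin. In cells of the immune system Psmb8, Psmb9 and Psmb10 can replace Psmb5, Psmb6 and Psmb7 to form the immunoproteasome, and Psme1 and Psme2 form an activator cap, an arrangement known for making peptides for MHC class I.

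RNA of sorted bone marrow early LPre-B cells, the cycling large pre-B stage, and sPre-B cells, the small resting stage, was sequenced in 8 libraries, 2 for each of 4 groups. Control mice (Ctrl) carried floxed Upf1 alleles and no Cre at Mb1 (genotype Flox/Flox with Mb1 +/+), whereas the knockout (cKO) carried the same Upf1 alleles together with Mb1 Cre/+. UPF1 is an RNA helicase of nonsense-mediated mRNA decay. Mice of all 4 groups also had the pre-rearranged heavy chain allele Igh B1-8hi on 1 chromosome (B1-8hi/+), so neither stage here is that of an unmodified mouse. Mb1-Cre is driven by the B-lineage gene Cd79a. The labels give no ages, and per the methods the mice were age-matched adults of both sexes. Both stages were sorted as B220+ cells without surface IgM and negative for a lineage stain against CD3e, CD11b, CD11c, F4/80 and TER-119. Early LPre-B cells were CD43+, CD2- and large, and sPre-B cells CD43 low, CD25+, CD2+ and small, so the markers Spn (CD43), Il2ra (CD25) and Cd2 are gated genes and no finding between the stages.

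Library totals lay between 68516857 and 160426338 counts. Upf1 was not lower in the libraries labelled cKO: it had 213 to 237 CPM (the usual counts-per-library scale, with TMM-adjusted library totals) in Ctrl and 245 to 258 CPM in cKO early LPre-B cells, and 186 to 198 CPM in Ctrl and 282 to 293 CPM in cKO sPre-B cells. The deletion removes a few exons, so a count over the whole gene does not check it. Cd79a, the locus that holds Cre, did follow the labels, at 543 to 1602 CPM in Ctrl and 160 to 405 CPM in cKO libraries. The B-lineage genes Pax5 and Cd79b were at 268 to 583 CPM and 261 to 1260 CPM in the 8 libraries. Both Ctrl libraries of replicate 2 had low Xist counts (151 and 304) and high counts of Y-linked genes (19733 and 28205), opposite to the other 6. In Ctrl early LPre-B cells, replicate 1 was above replicate 2 for 47 of 50 proteasome genes, with a median log2 difference of 0.252, whereas 55.8% of all genes were higher in replicate 1 and their median difference was 0.045.

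Promoter sequence from RefSeq (build GRCm38.p6) was found for 42 of the 50 genes. Within the 250 bases before the start, on both strands, the ETS letters CCGGAAG occurred in 12 of 42 (28.6%) against 8.97% of 18458 promoters of genes in the table. The antioxidant response element TGANNNNGC, bound by the NFE2L1 and NFE2L2 factors that are known to raise proteasome genes, occurred in 15 of 42 (35.7%) against 35.3%. The NF-Y box CCAAT also occurred in 15 of 42 (35.7%), against 36.3%. The interferon-stimulated response element was in 3 (7.14% against 3.02% of all), none of them an immunoproteasome gene. The gamma-activated site TTCNNNGAA was in 2 (4.76% against 6.76%), Psmb8 and Psmg1. These are matches of letters and no more. The 4 promoters printed belong to genes described below: Psme3 and Psmd14 fell between the stages, Psmg1 fell and was higher in cKO sPre-B cells, and Psmf1 was higher in cKO cells at both stages. Capitals mark the matches.
Psme3 (chr11:101315963-101316212, plus strand; ETS, then the NF-Y box): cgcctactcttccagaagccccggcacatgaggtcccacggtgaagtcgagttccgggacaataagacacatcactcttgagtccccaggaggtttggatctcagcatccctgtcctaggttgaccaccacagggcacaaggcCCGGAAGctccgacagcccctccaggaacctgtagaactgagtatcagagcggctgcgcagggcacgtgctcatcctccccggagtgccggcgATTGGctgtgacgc
Psmd14 (chr2:61711444-61711693, plus strand; NF-Y box): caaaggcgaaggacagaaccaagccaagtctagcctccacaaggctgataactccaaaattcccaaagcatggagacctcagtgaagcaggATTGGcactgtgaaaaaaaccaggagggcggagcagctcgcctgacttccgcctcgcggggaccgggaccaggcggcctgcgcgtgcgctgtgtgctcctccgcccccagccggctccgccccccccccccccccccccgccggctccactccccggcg
Psmg1 (chr16:95990961-95991210, minus strand; a gamma-activated site overlapping an antioxidant response element, then ETS): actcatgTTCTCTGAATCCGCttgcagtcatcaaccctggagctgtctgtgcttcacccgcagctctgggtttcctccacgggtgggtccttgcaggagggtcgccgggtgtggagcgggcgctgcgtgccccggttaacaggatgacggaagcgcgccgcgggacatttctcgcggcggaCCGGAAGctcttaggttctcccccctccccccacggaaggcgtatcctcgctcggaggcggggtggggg
Psmf1 (chr2:151741311-151741560, minus strand; no match): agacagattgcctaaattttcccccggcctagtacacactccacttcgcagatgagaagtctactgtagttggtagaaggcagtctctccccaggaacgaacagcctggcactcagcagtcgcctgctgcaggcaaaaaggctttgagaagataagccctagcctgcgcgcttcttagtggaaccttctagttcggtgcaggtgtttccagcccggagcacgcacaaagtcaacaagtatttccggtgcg

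Per kilobase of exon, the constitutive subunits differed among themselves in level. In Ctrl early LPre-B cells the 14 core genes had a median of 81.3 CPM per kilobase, from 21.7 for Psma3 to 121 for Psma6, a 5.58-fold span. The base had a median of 55.8 and the lid of 45.4 CPM per kilobase. In Ctrl sPre-B cells these medians were 48.0, 37.9 and 29.4 CPM per kilobase, and in cKO sPre-B cells 44.3, 37.3 and 32.2. The 7 chaperones had lower medians than the core, base and lid, at 13.6 CPM per kilobase in Ctrl early LPre-B and 8.81 in Ctrl sPre-B cells. The 5 immunoproteasome genes had medians of 55.3 CPM per kilobase in Ctrl and 62.7 in cKO early LPre-B cells, below the core at 81.3 and 72.9. In sPre-B cells their medians were 45.2 in Ctrl and 49.2 in cKO cells, near the core at 48.0 and 44.3.

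To examine how the genes changed as cells went from the early LPre- to the sPre-B stage, sPre-B was compared with early LPre-B libraries within each genotype. The constitutive proteasome fell almost as a whole. In Ctrl cells 38 of the 50 genes were lower and 1 was higher in sPre-B cells at an adjusted P under 0.05 (edgeR's quasi-likelihood test, Benjamini-Hochberg), where 31.1% of all genes tested were lower and 29.1% higher. The 50 genes had a median Log2FC of -0.70 and all genes one of 0.02. In cKO cells 39 were lower and 3 higher, beside a background of 31.1% lower and 31.6% higher, with medians of -0.615 and 0.05, and the 3 were Psme4, Psmb10 and Psme3ip1. At an unadjusted P under 0.05 there were 41 genes in Ctrl and 42 in cKO cells, where 64.2% and 66.6% of all genes passed. The libraries of both stages did not overlap for 42 genes with lower and 4 with higher levels in Ctrl sPre-B cells, where 40.3% of all genes were lower and 40.5% higher in this way. In cKO cells this held for 41 lower and 6 higher genes, against 40.3% and 42.8% of all genes. These RNAs come from bulk sorted cells, so fewer cells of a kind and less RNA per cell cannot be told apart.

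All 14 core genes fell in both genotypes, with a median Log2FC of -0.75 in Ctrl and -0.74 in cKO cells. Psma7, an alpha ring subunit, had 98.3 and 75.0 CPM in the Ctrl early LPre-B libraries and 41.4 and 40.1 CPM in Ctrl sPre-B (Log2FC -1.09, SE 0.13, adjusted P = 0.000106). In cKO cells its level went from 79.6 and 81.1 CPM to 38.9 and 43.1 CPM (Log2FC -0.97, SE 0.13). It had the largest fall of the core in both genotypes, and no sPre-B library reached an early LPre-B library. Psma3, another alpha subunit, fell least in both, by 0.40 on the log2 scale in Ctrl and by 0.35 in cKO cells. In cKO cells Psma2 and Psma3 each passed under 14 of 16 alternatives and Psmb1 under 13. Without Ctrl early LPre-B replicate 1 the Ctrl values were -0.24 for Psma3 (adjusted P = 0.0613) and -0.25 for Psmb1 (adjusted P = 0.0741), which no longer passed, against -0.45 for Psmb1 with it. Without Ctrl sPre-B replicate 2 they were -0.30 (adjusted P = 0.0675) and -0.31 (adjusted P = 0.0789), and with library totals Psma3 had -0.19. Leaving out Ctrl early LPre-B replicate 1 also moved Psma2 from -0.68 to -0.42, Psmb3 from -0.69 to -0.40 and Psmb4 from -0.70 to -0.39, and these still passed.

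Among the cutting subunits, Psmb5, which holds the chymotrypsin-like site, had 75.0 and 57.5 CPM in Ctrl early LPre-B and 41.5 and 36.0 CPM in Ctrl sPre-B libraries (Log2FC -0.77, SE 0.13, or -0.51 without Ctrl early LPre-B replicate 1). In cKO it went from 50.6 and 54.6 CPM to 30.5 and 31.1 CPM (Log2FC -0.77, SE 0.13). The difference between both falls was 0.00 (SE 0.19). Psmb6, of the caspase-like site, fell by 0.79 in Ctrl (Log2FC -0.55 without Ctrl early LPre-B replicate 1) and by 0.76 in cKO cells on the log2 scale, and Psmb7, of the trypsin-like site, by 0.85 and by 0.87. Psmb7 shares 405 exon bases (34.9% of its exon length) with Nek6 on the opposite strand, and since reads were mapped without strand and no strand setting is stated for the counting, its counts may hold reads of that gene. Psmb5 overlaps the microRNA gene Mir686 on its own strand over 109 bases (12.1%).

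In the base, 8 of 9 genes fell in each genotype, and all 6 ATPases were among them. Psmd1, a scaffold of the base, had the largest fall of the base in Ctrl cells, from 182 and 165 CPM to 81.7 and 75.8 CPM (Log2FC -1.14, SE 0.09, adjusted P = 1.17e-05), and went from 164 and 159 CPM to 84.4 and 87.5 CPM in cKO cells (Log2FC -0.91, SE 0.09). The ATPase Psmc3 followed, with a Log2FC of -1.04 in Ctrl and -0.91 in cKO cells, and Psmc5 had the smallest change of the ATPases with -0.54 in both. Psmd4, the receptor that binds ubiquitin chains, was the exception: 80.1 and 69.4 CPM in Ctrl early LPre-B stood beside 70.9 and 78.3 CPM in Ctrl sPre-B libraries, which overlapped (Log2FC -0.00, SE 0.10, adjusted P = 0.982), and in cKO cells the Log2FC was 0.08 (SE 0.10, adjusted P = 0.499).

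Of the 8 lid genes, 7 fell in Ctrl and 6 in cKO cells. Psmd7, the partner of the deubiquitinase, went from 72.7 and 60.2 CPM to 32.2 and 33.9 CPM in Ctrl (Log2FC -1.01, SE 0.11) and from 80.2 and 75.2 CPM to 30.0 and 31.9 CPM in cKO cells (Log2FC -1.33, SE 0.11, adjusted P = 1.47e-05). The deubiquitinase Psmd14 itself had a Log2FC of -0.96 in Ctrl and of -0.62 in cKO cells. Psmd8 did not pass the test in either genotype, with a Log2FC of -0.26 (adjusted P = 0.0827 in Ctrl and 0.0829 in cKO cells). Psmd6, a structural lid subunit, went from 63.3 and 54.5 CPM to 41.9 and 41.1 CPM in Ctrl cells (Log2FC -0.51, SE 0.10, adjusted P = 0.00203), with -0.34 without Ctrl early LPre-B replicate 1 and -0.30 with library totals. In cKO cells the Psmd6 libraries overlapped, at 57.6 and 59.8 CPM in early LPre-B and 57.2 and 62.6 CPM in sPre-B cells (Log2FC 0.03, SE 0.10, adjusted P = 0.813).

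Psme4, which encodes the nuclear activator PA200, went the other way and was the only gene of the 50 to rise in Ctrl cells. Its level was 245 and 291 CPM in the early LPre-B and 787 and 814 CPM in the sPre-B libraries of Ctrl mice, a 2.99-fold rise (Log2FC 1.58, SE 0.18, adjusted P = 9.22e-05). In cKO cells it rose 3.47-fold, from 144 and 185 CPM to 489 and 650 CPM (Log2FC 1.79, SE 0.18). Psme3, the nuclear activator PA28-gamma, fell with the core, by 0.85 on the log2 scale in Ctrl and by 0.84 in cKO cells. The inhibitor and adaptor Psmf1 (PI31) had overlapping libraries in Ctrl cells, at 39.2 and 35.5 CPM in early LPre-B and 38.6 and 37.1 CPM in sPre-B cells, and did not pass the test in cKO cells either (Log2FC -0.09, SE 0.08, adjusted P = 0.378).

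Of the 7 chaperones, 4 fell in Ctrl and 5 in cKO cells, and none rose. Psmg1, which with Psmg2 starts the alpha ring, went from 15.3 and 13.0 CPM to 5.71 and 5.43 CPM in Ctrl (Log2FC -1.35, SE 0.14) and from 14.4 and 15.3 CPM to 8.49 and 7.54 CPM in cKO cells (Log2FC -0.89, SE 0.14). Psmg2 fell by 1.31 in Ctrl and by 1.21 in cKO cells on the log2 scale. In Ctrl cells both values lie beyond the -1.09 of Psma7. Psmd10 and Psmg4 did not pass the test in either genotype. The largest fall with at least 50 counts in every early LPre-B library was that of Psmc3ip, which encodes a factor of meiotic recombination and no subunit: 22.2 and 20.6 CPM fell to 7.03 and 6.91 CPM in Ctrl (Log2FC -1.62, SE 0.13) and 19.2 and 22.2 CPM to 7.78 and 7.95 CPM in cKO cells (Log2FC -1.40, SE 0.12). It shares 385 exon bases (29.8%) with Mlx on the opposite strand. Psme3ip1, whose product binds PA28-gamma, rose in cKO cells (Log2FC 0.28, SE 0.09, adjusted P = 0.0244) and had a Log2FC of 0.21 in Ctrl cells (adjusted P = 0.0737), and its call was lost under 5 of 16 alternative settings.

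The tissue-restricted subunits were near the limit of detection. Psma8, of the testis, had 85 and 95 counts summed over both libraries of Ctrl and cKO early LPre-B cells and 5 and 7 counts in Ctrl and cKO sPre-B cells, with 0 in 1 Ctrl sPre-B library. Psmb11, of the thymic cortex, had 25 and 28 summed counts in early LPre-B and 27 and 56 in sPre-B cells of Ctrl and cKO mice and did not pass the test in any comparison. Psma8 was called lower in both genotypes, from levels under 1 CPM in every library.

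**Figure D1:**
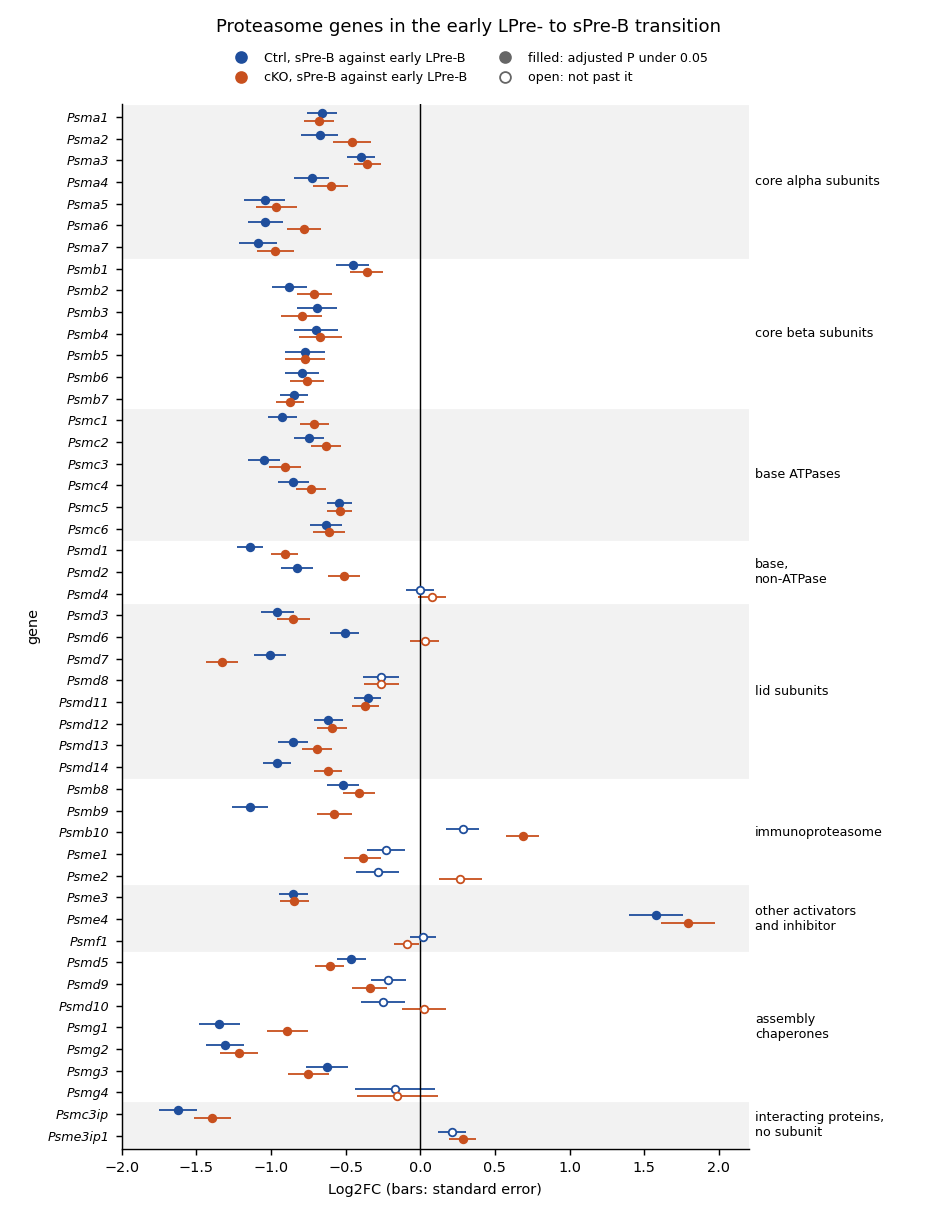
Log2 fold change of sPre-B against early LPre-B cells (x axis) for 48 proteasome genes grouped by role (y axis), in Ctrl (blue) and cKO (orange) cells. Bars are standard errors, filled points passed an adjusted P of 0.05 and open points did not, and Psma8 and Psmb11, which are near 0 counts, are left out. All 14 core genes lie left of 0 in both genotypes, and Psme4 stands alone at 1.58 and 1.79.

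The immunoproteasome genes did not move as 1 group. In Ctrl cells 2 of 5 fell, Psmb8 and Psmb9, and 3 did not pass the test, where 31.1% of all genes fell and 29.1% rose. In cKO cells Psmb8, Psmb9 and Psme1 fell, Psmb10 rose and Psme2 did not pass, where 31.1% of all genes fell and 31.6% rose. Psmb9, the immune counterpart of Psmb6, had 82.8 and 66.9 CPM in Ctrl early LPre-B and 36.4 and 31.5 CPM in Ctrl sPre-B cells (Log2FC -1.14, SE 0.12, adjusted P = 5.47e-05). In cKO cells it went from 91.1 and 95.6 CPM to 62.6 and 62.5 CPM (Log2FC -0.58, SE 0.12). Its Ctrl fall was the largest of the 5. Psmb8, the counterpart of Psmb5, fell by 0.52 in Ctrl (129 and 105 CPM to 79.7 and 84.2 CPM) and by 0.41 in cKO cells (99.8 and 104 CPM to 78.8 and 75.1 CPM) on the log2 scale. The Ctrl value of Psmb8 was -0.30 without Ctrl early LPre-B replicate 1 (adjusted P = 0.0255), and without cKO sPre-B replicate 2 the cKO call was lost (adjusted P = 0.0545).

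Psmb10, the counterpart of Psmb7, was the only 1 of the 6 cutting subunits with a positive value in both genotypes. It went from 51.6 and 45.7 CPM to 61.1 and 57.3 CPM in Ctrl cells (Log2FC 0.28, SE 0.11, adjusted P = 0.0509). In cKO cells it rose from 36.5 and 43.6 CPM to 62.9 and 66.1 CPM (Log2FC 0.69, SE 0.11, adjusted P = 0.000654). The groups did not overlap in either genotype, and the Ctrl value passed the test under 8 of 16 alternatives, with a Log2FC of 0.31 and an adjusted P of 0.0351 by median-ratio factors. For the activator genes, Psme1 had a Log2FC of -0.23 in Ctrl (adjusted P = 0.146) and -0.39 in cKO cells (adjusted P = 0.0254, lost under 3 of 16 alternatives), and Psme2 of -0.28 in Ctrl (adjusted P = 0.12) and 0.27 in cKO cells (adjusted P = 0.138). Without Ctrl early LPre-B replicate 1 the Ctrl values of Psme1 and Psme2 were 0.02 and 0.00. Psme2 has a near-identical copy, Psme2b, which was not analysed here, so its counts are uncertain.

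The transition counts moved little with the choice of libraries. Of the 39 genes called in Ctrl cells, 36 passed under each of 16 alternative settings, as did 34 of the 42 in cKO cells. Without Ctrl early LPre-B replicate 1, 35 genes were lower and 2 higher in Ctrl cells and the median was -0.49, and without both Ctrl libraries of replicate 2, 37 were lower and 1 higher. With no scaling factor beyond library totals the median of all genes moved from 0.02 to 0.22 in Ctrl cells and from 0.05 to 0.14 in cKO cells, and the 50 genes lay 0.71 and 0.66 below it, against 0.72 and 0.66 with the factors. Other markers moved with this comparison. The 7 early LPre-B markers, among them the proliferation genes Mki67 and Top2a, summed to 7704 and 8157 CPM in Ctrl early LPre-B and 1158 and 601 CPM in Ctrl sPre-B cells. All 7 fell in Ctrl and 6 of 7 in cKO cells, where 31.1% of all genes fell in either genotype. All 7 B-lineage genes rose in both genotypes, with a median Log2FC of 0.85 in Ctrl and 1.07 in cKO cells. Their sum went from 2881 and 2862 CPM to 6054 and 6773 CPM in Ctrl cells. The 5 sPre-B markers, which include the gated Il2ra and Cd2, also all rose in both. The 9 myeloid and granulocyte markers summed to 54.7 to 140 CPM in early LPre-B and 219 to 363 CPM in sPre-B libraries. Of these, 5 of 9 rose in Ctrl and 7 of 9 in cKO cells, where 29.1% and 31.6% of all genes rose. Most of the sum was Itgam, which encodes CD11b of the lineage stain, with 87.1 and 97.4 CPM in Ctrl early LPre-B and 228 and 262 CPM in Ctrl sPre-B cells. S100a9 went from 6.11 and 8.04 CPM to 28.3 and 33.1 CPM and S100a8 from 3.85 and 5.46 CPM to 18.7 and 21.2 CPM in Ctrl cells, while Mpo and Elane were at no more than 6.54 CPM in any library. The 6 dendritic cell markers went from 17.0 and 21.3 CPM to 76.5 and 127 CPM in Ctrl cells, where 5 rose, and from 22.4 and 28.7 CPM to 414 and 367 CPM in cKO cells, where all 6 rose. The part of these lists in the proteasome and immunoproteasome values was not tested.

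**Figure D2:**
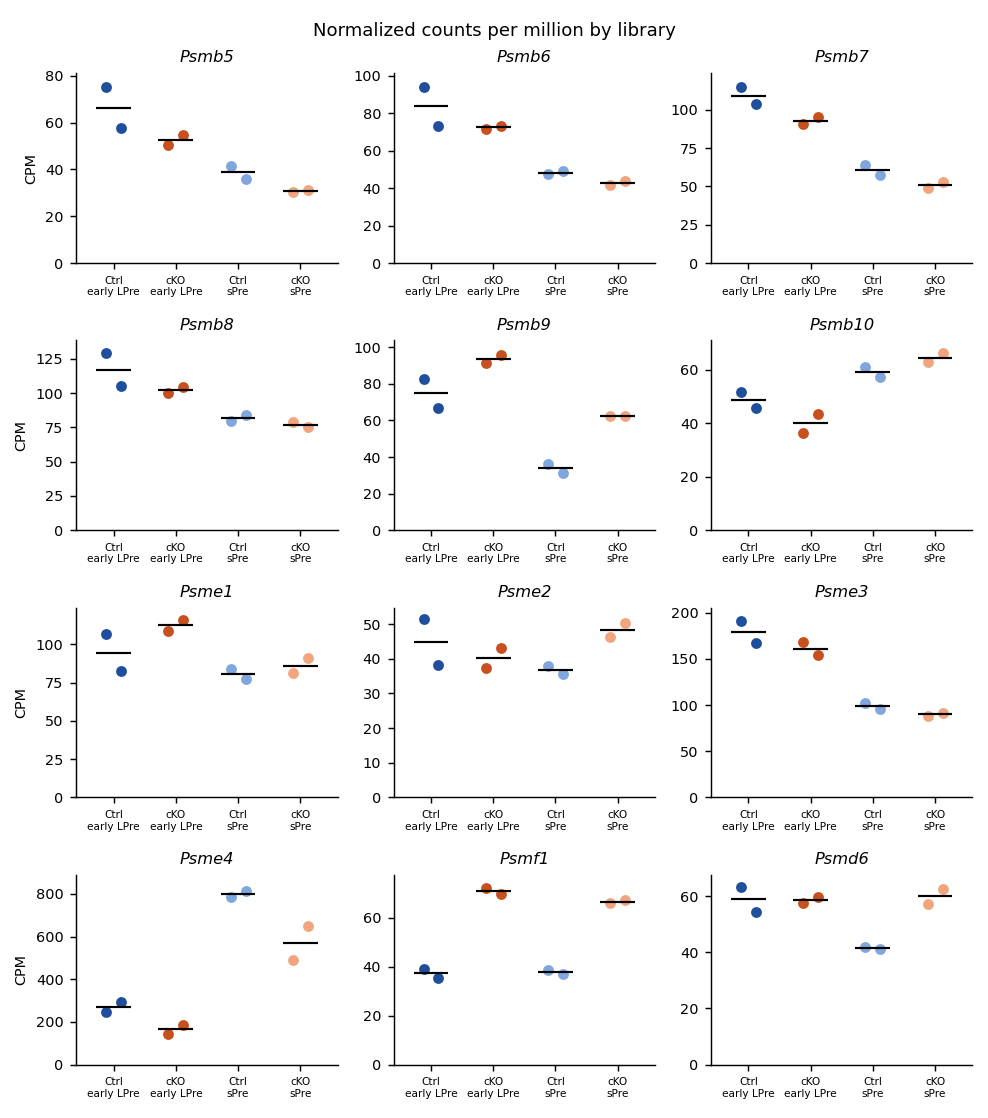
Level in CPM (y axis, from 0) of 12 genes in each library (points) of the 4 groups (x axis), with the group mean as a bar, n = 2 libraries a group. Psmf1 is near 70 CPM in cKO and below 40 CPM in Ctrl cells at both stages, Psme4 is highest in Ctrl sPre-B cells, and Psmb9 is lowest there.

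To see which genes differed when Upf1 was targeted, cKO was compared with Ctrl cells at each stage. In early LPre-B cells 3 of the 50 proteasome genes were higher and 6 lower, where 14.5% of all genes tested were higher, 16.9% lower and 31.3% either. At an unadjusted P under 0.05 there were 19 (42.7% of all genes). The libraries did not overlap for 9 higher genes (29.9% of all genes) and 22 lower ones (36.4%). The median was -0.15 for the 50 genes and -0.06 for all genes. The higher ones were Psmf1 and the chaperones Psmg3 and Psmd9. The lower ones were Psme4, the alpha subunits Psma2 and Psma6, the ATPases Psmc1 and Psmc2, and Psmd2 of the base.

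Psmf1 had 39.2 and 35.5 CPM in Ctrl and 72.1 and 69.7 CPM in cKO early LPre-B cells, a 1.90-fold difference (Log2FC 0.92, SE 0.08, adjusted P = 0.000154). Every cKO library stood well above every Ctrl library, and the call held under all 16 alternatives with Log2FC from 0.90 to 1.10. Psmg3, a chaperone of the alpha ring, had 16.5 and 12.9 CPM in Ctrl and 19.4 and 20.7 CPM in cKO cells (Log2FC 0.45, SE 0.14, adjusted P = 0.0398), and passed under 10 of 16 alternatives, with 0.67 without Ctrl early LPre-B replicate 1 and 0.33 without replicate 2 (adjusted P = 0.0101 and 0.0942). Psmd9, a chaperone of the base, had 24.1 and 20.0 CPM in Ctrl and 29.6 and 30.1 CPM in cKO cells (Log2FC 0.44, SE 0.12, adjusted P = 0.0219), and passed under 14.

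Psme4 was lower in cKO early LPre-B cells, with 245 and 291 CPM in Ctrl and 144 and 185 CPM in cKO libraries (Log2FC -0.71, SE 0.18, adjusted P = 0.0163). Its call was lost under 4 of 16 alternatives, with adjusted P up to 0.122, while the sign held. Psma2 had 106 and 82.1 CPM in Ctrl and 65.9 and 70.4 CPM in cKO cells (Log2FC -0.47, SE 0.13, adjusted P = 0.0228), and Psma6 had 152 and 126 CPM in Ctrl and 99.2 and 105 CPM in cKO cells (Log2FC -0.44, SE 0.11, adjusted P = 0.0199). The groups did not overlap for any of the 3 genes. The calls of Psma2 and Psma6 were each lost under 4 of 16 alternatives. Without Ctrl early LPre-B replicate 1 the values were -0.23 for Psma2 (adjusted P = 0.158) and -0.26 for Psma6 (adjusted P = 0.15), and both calls were also lost without either cKO early LPre-B library and with library totals. Psmc1, Psmc2 and Psmd2 had Log2FC of -0.38, -0.33 and -0.33, and Psmc1 passed under 11 of 16 alternatives and Psmc2 and Psmd2 under 7 each. Their values were -0.22, -0.16 and -0.15 without Ctrl early LPre-B replicate 1, and none passed.

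The calls in early LPre-B cells depended on the libraries and on the scaling. Without Ctrl replicate 1, which stood above replicate 2 for 47 of the 50 genes, 7 genes were higher and 1 lower, and the median was 0.01. Without Ctrl replicate 2, 2 were higher and 12 lower. Without cKO replicate 1, 1 was higher and 0 lower, and without cKO replicate 2, 1 was higher and 1 lower. With library totals alone 9 were higher and 0 lower, as the median of all genes moved from -0.06 to 0.11 and that of the 50 genes from -0.15 to 0.02, while their gap stayed at -0.09 and -0.08. The 14 core genes had a median of -0.22 and the chaperones one of 0.23 in the reported fit. Other markers differed here too: the 9 myeloid and granulocyte markers summed to 115 and 140 CPM in Ctrl and to 54.7 and 59.5 CPM in cKO cells, and the 5 sPre-B markers to 690 and 684 CPM in Ctrl and to 402 and 436 CPM in cKO cells. Of those 5, 3 were called lower, with Rag1 at 409 and 385 CPM in Ctrl and 44.0 and 75.0 CPM in cKO libraries, and Igkc was called higher, with 150 and 154 CPM in Ctrl and 298 and 280 CPM in cKO libraries. The 7 early LPre-B markers, with Mki67 and Top2a, summed to 7704 and 8157 CPM in Ctrl and to 5171 and 5449 CPM in cKO cells. All 7 had a negative Log2FC and 2 were called lower, where 16.9% of all genes were. Most of the sum was Mki67, with 4460 and 4927 CPM in Ctrl and 2906 and 3071 CPM in cKO cells. Kit had the largest difference of the 7, at 18.7 and 15.1 CPM in Ctrl and 3.84 and 2.08 CPM in cKO cells (Log2FC -2.51). Of the B-lineage genes, Ebf1 had 432 and 522 CPM in Ctrl and 345 and 351 CPM in cKO cells and was called lower. The part of these in the proteasome values was not tested.

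In sPre-B cells 4 of 50 genes were higher in cKO and 0 lower by edgeR's quasi-likelihood test, where 19.8% of all genes were higher, 14.9% lower and 34.7% either. At an unadjusted P under 0.05 there were 11 genes in either direction (44.9% of all genes). The libraries did not overlap for 14 higher genes (36.5% of all genes) and 21 lower ones (34.3%). By DESeq2 4 were higher and 4 lower. Median-ratio factors gave 4 higher and 3 lower, and library totals 9 higher and 1 lower. Without Ctrl early LPre-B replicate 1, 6 were higher and 7 lower, without its replicate 2 6 and 5, and without both Ctrl libraries of replicate 2 3 and 5. The 4 genes were Psmb9, Psmf1, Psmd6 and Psmg1. Among lower genes Psmb3 of the core came nearest in the reported fit, with 51.45 and 47.1 CPM in Ctrl and 37.4 and 37.6 CPM in cKO libraries (Log2FC -0.395, SE 0.14, adjusted P = 0.0517). Over the 16 alternatives its Log2FC ran from -0.494 to -0.338 and it passed under 10. Psmb7 and Psmb5, also lower, passed under 6 and 5.

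Psmb9 had the largest difference. It stood at 36.4 and 31.5 CPM in Ctrl and at 62.6 and 62.5 CPM in cKO sPre-B cells, 1.84-fold higher (Log2FC 0.88, SE 0.12, adjusted P = 0.000806), and passed under all 16 alternatives with Log2FC from 0.75 to 0.95. In early LPre-B cells it had 82.8 and 66.9 CPM in Ctrl and 91.1 and 95.6 CPM in cKO cells (Log2FC 0.32, SE 0.12, adjusted P = 0.0687). That value passed under 6 of 16 alternatives and ran from 0.22 without Ctrl replicate 2 to 0.52 without Ctrl replicate 1 (adjusted P = 0.186 and 0.0191). Psmb9 lies head to head with Tap1, the peptide transporter, on chromosome 17, and shares 212 exon bases with it (15.7% of its exon length) on the opposite strand, so their counts cannot be wholly told apart. Tap1 was itself higher in cKO sPre-B cells, with 116 and 111 CPM in Ctrl and 170 and 191 CPM in cKO libraries (Log2FC 0.67, SE 0.10, adjusted P = 0.00133).

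The other immunoproteasome genes did not pass the test between genotypes at either stage in the reported fit. Psme2 came nearest in sPre-B cells, with 37.9 and 35.6 CPM in Ctrl and 46.4 and 50.5 CPM in cKO libraries, which did not overlap (Log2FC 0.40, SE 0.15, adjusted P = 0.0637), and it passed under 5 of 16 alternatives. Psmb8 had a Log2FC of -0.20 in early LPre-B and of -0.09 in sPre-B cells, and Psmb10 of -0.28 and 0.12. Psme1 had 0.25 and 0.09. Without Ctrl early LPre-B replicate 1 the early LPre-B values were 0.48 for Psme1 (adjusted P = 0.0226), -0.00 for Psmb8 and -0.15 for Psmb10, and without replicate 2 they were 0.13, -0.29 and -0.32. Psme1 passed under 2 of 16 alternatives there.

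Psmf1 repeated its early LPre-B difference, with 38.6 and 37.1 CPM in Ctrl and 66.1 and 67.2 CPM in cKO sPre-B cells, 1.76-fold higher (Log2FC 0.82, SE 0.09, adjusted P = 0.000238). It was the only gene called in both stages. Psmd6 had 41.9 and 41.1 CPM in Ctrl and 57.2 and 62.6 CPM in cKO sPre-B cells (Log2FC 0.53, SE 0.10, adjusted P = 0.00387), whereas the Log2FC in early LPre-B cells was -0.00 (SE 0.10). Psmg1 had 5.71 and 5.43 CPM in Ctrl and 8.49 and 7.54 CPM in cKO sPre-B cells (Log2FC 0.52, SE 0.14, adjusted P = 0.0187), and lost its call under 4 of 16 alternatives, each with fewer sPre-B libraries. Psme4 had 787 and 814 CPM in Ctrl and 489 and 650 CPM in cKO sPre-B cells (Log2FC -0.49, SE 0.18, adjusted P = 0.0594), and passed under 8 of 16 alternatives. It was -0.30 without cKO sPre-B replicate 1 (adjusted P = 0.329) and -0.71 without replicate 2 (adjusted P = 0.0328).

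Dendritic cell markers moved with the sPre-B difference. Of 6, 3 were higher and 0 lower in cKO sPre-B cells, where 19.8% of all genes were higher and 14.9% lower. The list summed to 76.5 and 127 CPM in Ctrl and to 414 and 367 CPM in cKO libraries. Most of it came from Itgax, which encodes CD11c of the lineage stain (63.2 and 114 CPM in Ctrl, 376 and 332 CPM in cKO cells). Ccr9 had 3.89 and 3.94 CPM in Ctrl and 12.7 and 9.54 CPM in cKO libraries, and Bst2 had 7.01 and 6.35 CPM in Ctrl and 22.2 and 22.9 CPM in cKO libraries. Zbtb46 was at or under 1.93 CPM in every sPre-B library and did not pass. The defining markers Xcr1 and Siglech were at or under 0.936 CPM in every sPre-B library and did not pass the test. T and NK cell markers summed to 1.43 to 1.84 CPM in the sPre-B libraries. Other lists moved as well. The B-lineage gene Ebf1 had 780 and 915 CPM in Ctrl and 471 and 501 CPM in cKO libraries and was called lower. The sPre-B markers summed to 4937 and 4472 CPM in Ctrl against 3364 and 3597 CPM in cKO libraries (1 of 5 higher, 1 lower). Among the sPre-B markers Rag1 had 3508 and 2964 CPM in Ctrl and 1497 and 1612 CPM in cKO libraries, Igkc had 620 and 724 CPM against 1106 and 1180 CPM, and Il2ra 476 and 479 CPM against 481 and 532 CPM. Lower sums were also seen for the myeloid and granulocyte markers, with 312 and 363 CPM against 219 and 251 CPM (1 of 9 lower). The erythroid and the plasma cell lists had 1 lower gene each. Of the early LPre-B markers 2 of 7 were higher, and their sum was 1158 and 601 CPM in Ctrl, with replicate 2 apart, and 1085 and 1266 CPM in cKO libraries. The part of these in the sPre-B values was not tested.

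**Figure D3:**
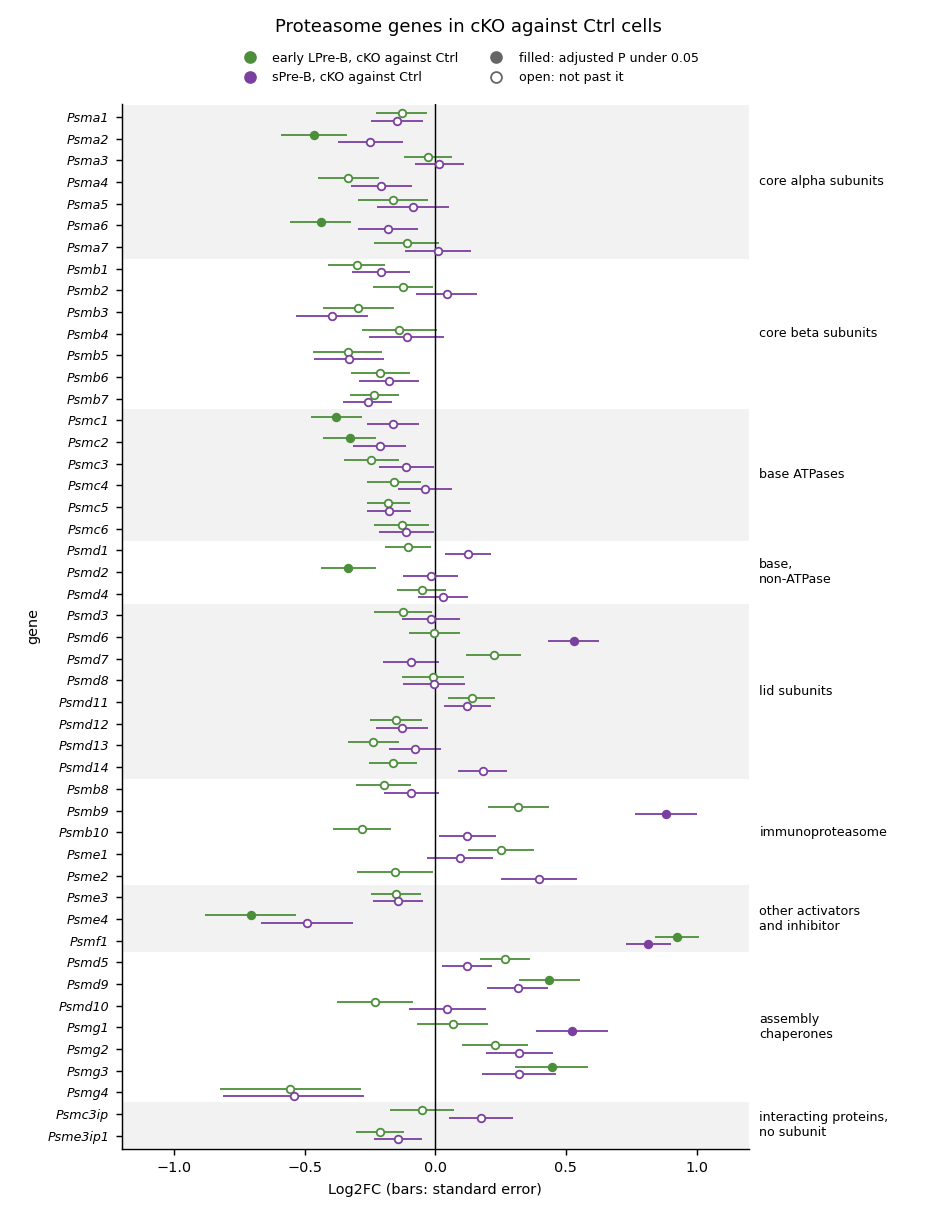
Log2 fold change of cKO against Ctrl cells (x axis) for 48 proteasome genes grouped by role (y axis), in early LPre-B (green) and sPre-B cells (purple), with standard errors as bars, filled points past an adjusted P of 0.05 and Psma8 and Psmb11 left out. Most points lie within 0.5 of 0, Psmf1 is at 0.92 and 0.82, and Psmb9 is at 0.88 in sPre-B cells.

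Whether the genotype difference changed between the stages was tested as an interaction. No gene of the 50 passed (edgeR's quasi-likelihood test), where 2.64% of all genes tested had a more positive and 1.6% a more negative difference in sPre-B cells, 4.24% in all. At an unadjusted P under 0.05 there were 6 of 50, and 20.8% of all genes. DESeq2 called 1 gene, Psmd6, and the fit with no filter on low counts called 2, Psmd6 and Psmb9. For Psmd6 the genotype Log2FC was 0.53 larger in sPre-B than in early LPre-B cells (SE 0.14, adjusted P = 0.0676), and for Psmb9 0.57 larger (SE 0.17, adjusted P = 0.0952). Since neither passed, the stage changes of Psmd6 and Psmb9 are not shown to differ between the genotypes. For Psmf1 the difference was -0.11 (SE 0.12, adjusted P = 0.671).

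The balance of immune and constitutive cutting subunits was read per library as a share of reads per kilobase. The shares are given as a description and were not tested. An exact two-sided permutation test of 2 against 2 libraries could not go under a P of 0.333. Psmb9 made up 34.2% and 34.9% of Psmb9 and Psmb6 in the Ctrl libraries of the early LPre-B stage, and in the cKO libraries 43.0% and 43.4%. In sPre-B cells its share was 31.0% and 27.5% in Ctrl and 46.8% and 45.9% in cKO libraries. The share was thus higher in every cKO than in every Ctrl library. Psmb10 made up 28.2% ± 0.336 (SD, n = 2) of Psmb10 and Psmb7 in Ctrl and 27.6% ± 1.78 in cKO early LPre-B cells, and 46.3% ± 0.760 in Ctrl and 52.9% ± 0.547 in cKO sPre-B cells, so that it was higher in each sPre-B library than in each early LPre-B library. Psmb8 was the steadiest, from 49.5% ± 1.04 of Psmb8 and Psmb5 in Ctrl early LPre-B to 57.9% ± 1.16 in cKO sPre-B cells. Over the 3 pairs together the immune share was 37.6% ± 0.173 in Ctrl and 41.4% ± 0.404 in cKO early LPre-B cells, and 43.6% ± 0.590 in Ctrl and 52.0% ± 0.825 in cKO sPre-B cells, and the 4 groups did not overlap. These shares are of RNA, take the exon length of the RefSeq transcripts as the length and include the reads that overlapping genes may add to Psmb9, Psmb7 and Psmb5.

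**Figure D4:**
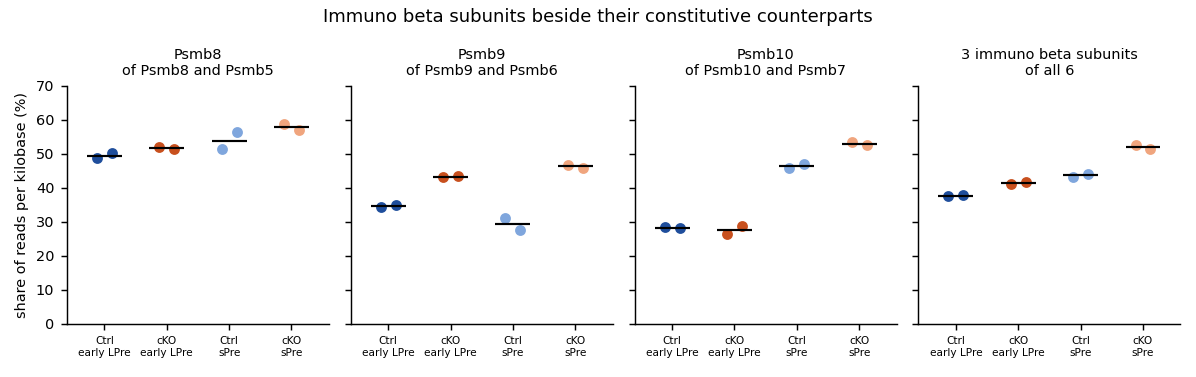
Share of reads per kilobase (y axis, percent) that the immune subunit takes of itself and its constitutive counterpart, in each library (points) of the 4 groups (x axis), with the mean as a bar, n = 2 libraries a group. Psmb10 separates the stages, Psmb9 separates the genotypes, and all 3 pairs together run from 37.6% in Ctrl early LPre-B to 52.0% in cKO sPre-B cells.

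Other genes of the pathway were read from lists of 34 genes chosen by function. The subunits Adrm1 and Sem1 and the assembly factor Pomp, which the symbol rule leaves out, all fell in both genotypes, with median Log2FC of -0.65 in Ctrl and -0.44 in cKO cells. Of the 12 proteasome-bound and shuttle factors, 8 fell and 1 rose in each genotype, where 31.1% of all genes fell in either genotype and 29.1% rose in Ctrl and 31.6% in cKO cells. The largest falls were those of the proteasome-bound Txnl1 in Ctrl cells (80.0 and 74.4 CPM to 31.5 and 30.5 CPM, Log2FC -1.32, SE 0.08) and of the shuttle factor Ubqln4 in cKO cells (79.2 and 78.7 CPM to 31.4 and 30.6 CPM, Log2FC -1.35, SE 0.09). The deubiquitinase Uchl5, which docks on the base, fell by 1.27 in Ctrl and by 1.33 in cKO cells on the log2 scale. The riser was Zfand5, a proteasome-binding zinc finger protein (Log2FC 0.58 in Ctrl and 0.37 in cKO cells).

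Of the class I antigen presentation genes, 6 of 10 rose and 2 fell in Ctrl cells, and 6 rose and 1 fell in cKO cells, with medians of 0.64 and 0.84. Of all genes, 29.1% rose and 31.1% fell in Ctrl and 31.6% rose and 31.1% fell in cKO cells. Irf1, an interferon-regulated activator of immunoproteasome genes, rose from 62.0 and 53.0 CPM to 141 and 128 CPM in Ctrl cells (Log2FC 1.23, SE 0.17) and had a Log2FC of 1.37 in cKO cells. Nlrc5, the class I transactivator, fell in both, by 0.60 and by 0.41 on the log2 scale, and was higher in cKO cells at both stages, by 0.54 in early LPre-B and 0.72 in sPre-B cells. Of the 10 class I genes, 1 was higher and 0 lower in cKO early LPre-B cells (14.5% and 16.9% of all genes) and 2 higher and 0 lower in cKO sPre-B cells (19.8% and 14.9%), with medians of 0.16 and 0.18. In sPre-B cells the level of Nlrc5 was 96.6 and 94.9 CPM in Ctrl and 139 and 178 CPM in cKO libraries.

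Of the 9 genes of the pathway that raises proteasome genes when the enzyme is blocked, 4 rose and 2 fell in each genotype (29.1% and 31.1% of all genes in Ctrl, 31.6% and 31.1% in cKO cells). The fallers were Vcp, an unfoldase (Log2FC -0.71 in Ctrl and -0.51 in cKO cells), and its cofactor Nploc4 (-0.44 and -0.49). Between genotypes 2 were higher and 1 lower in early LPre-B cells (14.5% and 16.9% of all genes) and 3 higher and 1 lower in sPre-B cells (19.8% and 14.9%), and Ngly1, Ddi2, Vcp, Nploc4 and Mafk did not pass at either stage. Nfe2l1, the transcription factor of the pathway, rose between the stages in both genotypes (Log2FC 0.39 in Ctrl and 0.84 in cKO cells). In sPre-B cells it had 81.5 and 77.5 CPM in Ctrl and 120 and 123 CPM in cKO libraries (Log2FC 0.61, SE 0.09, adjusted P = 0.000941). Its relative Nfe2l2 was lower in cKO early LPre-B cells, at 29.8 and 28.7 CPM against 52.8 and 48.2 CPM in Ctrl (Log2FC -0.79, SE 0.10), and in sPre-B cells (Log2FC -0.38, SE 0.10). The small Maf partner Mafg had 4.33 and 3.92 CPM in Ctrl and 9.83 and 9.11 CPM in cKO early LPre-B cells (Log2FC 1.196, SE 0.15), and was higher by 0.71 in sPre-B cells. Ufd1, a cofactor of the unfoldase VCP, was higher in cKO cells at both stages, by 0.79 in early LPre-B and by 0.61 in sPre-B cells. The shuttle factor Ubqln2 was lower at both, with Log2FC of -0.68 and -0.83. None of the 34 genes passed the interaction test.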

How the data were processed

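RNA-seq counts of 8 libraries were used. Per the labels and the methods, the authors depleted rRNA, made directional libraries, trimmed reads with Trim Galore, mapped them to mm10 with HISAT2 in paired-end, unstranded mode and counted them with featureCounts (versions not given in the sources used here), and they deposited raw counts per Entrez gene. The strand setting of the counting is not given in the sources used here. RefSeq named 25275 of 27179 genes. Counts were fitted with edgeR 4.0.16 in R 4.3.3 (TMM factors, filterByExpr, 1 mean per group, quasi-likelihood test, Benjamini-Hochberg over 17700 genes), and the scripts were tested on simulated data. CPM use the TMM factors. Exon length is the union of RefSeq-linked exons in GENCODE M21. The named genes are the immunoproteasome genes with their counterparts, Psme3 and Psme4, the 3 largest called changes each way with at least 50 counts in every library of the higher group, and up to 3 pathway genes a comparison; further members and pathway genes were named after their values were seen. The genes and lists were chosen with earlier results of these data known. The statistics statement calls data points independent biological replicates, and 2 libraries a group and a common biological coefficient of variation of 0.174 limit the precision. Psme2b was not analysed here. Alternatives were median-ratio factors, library totals, immunoglobulin genes left out, no filter, DESeq2 1.42.0, a replicate block, single libraries left out, both Ctrl replicate 2 libraries left out, and only the 4 libraries compared.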

Additional observations from a re-analysis of the deposited data

How the results depend on the processing

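Of the values of the genes named by rule, 971 kept direction and side of the threshold, 46 passed it newly, 33 no longer passed it and 6 changed sign. With library totals the sign changed for Psme2 (0.024) and Psme3 (0.023) in the early LPre-B genotype comparison. Leaving out Ctrl early LPre-B replicate 1 or 2, the value ran from -0.325 to 0.015 for Psmb6 and from -0.304 to 0.114 for Psme2 in that comparison, and from -0.336 to 0.022 for Psme1 and from -0.416 to 0.003 for Psme2 in the Ctrl transition. Other members, such as Psma1, Psma3 and Psma7 in the early LPre-B genotype comparison, also changed sign under some alternatives. None of these values was called in the reported fit, and the cause was not tested. Counts of called genes moved by more than 1.5 times as follows. For genes higher in the Ctrl transition (1) they were 3 with median-ratio factors, 4 with library totals, 2 with immunoglobulin genes left out and 2 by DESeq2. In the early LPre-B genotype comparison library totals gave 9 higher and 0 lower, and a fit of only the 4 libraries compared gave 5 higher and 3 lower. In the sPre-B genotype comparison (4 higher, 0 lower) the total was 7 with median-ratio factors, 10 with library totals, 8 by DESeq2, 7 with no filter on low counts, 8 without both Ctrl libraries of replicate 2 and 9 with only the 4 libraries compared, of which 3, 1, 4, 2, 5 and 4 were lower, library totals gave 9 higher, and 1 was lower with immunoglobulin genes left out. The interaction had 1 call by DESeq2 and 2 with no filter, all higher.

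Leaving out 1 library at a time, where the lone library of a group was taken to vary as the other groups do, gave 37 to 43 genes called in the Ctrl transition (1 to 2 higher, 35 to 42 lower), 36 to 43 in the cKO transition (2 to 3 higher, 33 to 40 lower), 1 to 14 in the early LPre-B genotype comparison (1 to 7 higher, 0 to 12 lower), 3 to 13 in the sPre-B one (3 to 6 higher, 0 to 7 lower) and 0 in the interaction. The replicate block gave 4 higher and 2 lower genes in the sPre-B genotype comparison, 4 and 6 in the early LPre-B one, 1 and 38 in the Ctrl transition and 3 and 39 in the cKO transition. Same-numbered libraries correlated in their deviations by 0.395 and 0.254 between stages and by 0.155 and 0.0858 between genotypes, over 2 numbers each, and both Ctrl libraries of replicate 2 differ from the other 6 in Xist and Y-linked counts. The labels do not say whether a number marks a shared mouse. The libraries were treated as unpaired, and a shared mouse was not tested.

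Without length correction the immune shares were higher throughout, in the order Ctrl early LPre-B, cKO early LPre-B, Ctrl sPre-B and cKO sPre-B cells: 63.9%, 66.0%, 67.9% and 71.4% for Psmb8, 47.2%, 56.3%, 41.2% and 59.4% for Psmb9, 30.8%, 30.1%, 49.4% and 56.0% for Psmb10, and 48.1%, 51.9%, 54.2% and 62.1% for all 3. With 1 library left out they ranged from 48.7% to 50.2%, 51.4% to 52.1%, 51.4% to 56.3% and 57.1% to 58.8% for Psmb8, from 34.2% to 34.9%, 43.0% to 43.4%, 27.5% to 31.0% and 45.9% to 46.8% for Psmb9, from 28.0% to 28.5%, 26.3% to 28.8%, 45.8% to 46.9% and 52.6% to 53.3% for Psmb10, and from 37.5% to 37.7%, 41.1% to 41.7%, 43.2% to 44.0% and 51.4% to 52.6% for all 3. Depth limits Psma8 and Psmb11 only, where 3 counts in a group are worth 0.0123 to 0.0199 CPM.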
